A study of Mus musculus with 12 samples.

Results

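Monocytes were picked out of single-cell transcriptomes of whole mouse liver by the transcripts they carried, which left 5572 of 184493 barcodes that passed the filters in 9 libraries. A passing barcode had at least 1000 UMIs (unique molecular identifiers, each standing for 1 captured transcript) and at most 15% of them on mitochondrial genes. A barcode was taken as a monocyte if it held at least 1 UMI of 3 or more of 5 genes, namely Ly6c2, Ccr2, F13a1, Csf1r and Ms4a6c. It also had to hold less than 5% of its UMIs on the neutrophil genes S100a8 and S100a9, under 5 UMIs of the macrophage complement genes C1qa, C1qb and C1qc together, and under 5 UMIs of the antigen presentation genes H2-Aa and H2-Ab1 together. Levels of these 12 genes in the chosen cells follow from the choice, so they are described and not tested.

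Monocytes are blood phagocytes that arise from granulocyte and monocyte progenitors. Before birth the liver is the main site where they are made, and production moves to the bone marrow around birth. Immature cells of this lineage divide and carry transcripts of primary granule enzymes such as Mpo (myeloperoxidase) and Elane (neutrophil elastase). Classical monocytes carry Ly6C and the chemokine receptor Ccr2, whereas patrolling monocytes depend on the nuclear receptor Nr4a1 and carry Cx3cr1. Jag1 is a ligand of the Notch receptors, and the Nodder allele (Ndr) of Jag1 is a missense allele that causes bile duct paucity and jaundice in homozygous mice.

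The livers came from Jag1+/+, Jag1Ndr/+ and Jag1Ndr/Ndr animals, all offspring of heterozygous parents, taken either before birth, on embryonic day E16.5, or after it, on postnatal day P3. The E16.5 matrix deposited as Jag1+/+ replicate 2 was identical to the one deposited as Jag1Ndr/+ replicate 2, and it was counted once and is called the shared library. The other E16.5 libraries were Jag1+/+ replicate 1, Jag1Ndr/+ replicate 1 and Jag1Ndr/Ndr replicates 1 and 2. At P3, several matrices held the same barcodes under different genotype labels, and 4 libraries without a large overlap were used. Libraries A and B came from the matrices labelled Jag1+/+ replicates 1 and 2, but their barcodes also stood under homozygous labels, and those of B under a heterozygous label too, so their genotype is unclear. Library C was the remainder of the matrix labelled Jag1Ndr/Ndr replicate 1 and library D was labelled Jag1Ndr/+ replicate 1. The 9 libraries shared at most 0.940% of the smaller one's barcodes. Values by library are given below in the order Jag1+/+ replicate 1, shared library, Jag1Ndr/+ replicate 1, Jag1Ndr/Ndr replicates 1 and 2 for E16.5, and A to D for P3.

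The stages also differed in ways other than age. Only the E16.5 livers were digested with TrypLE, homozygous pups at P3 were recognised by their jaundice, and the deposited gene lists held 31053 genes at E16.5 and 22597 at P3, of which the 22519 in both were compared. Stage and these differences cannot be told apart. Monocytes were deeply covered, with medians of 13000 to 18300 UMIs per cell at E16.5 and 7120 to 13600 at P3, against 5250 to 9180 and 2910 to 6060 in the other passing barcodes. Each library held 6760000 to 10200000 monocyte UMIs at E16.5 and 3780000 to 19000000 at P3. A median of 6.67% to 14.5% of a monocyte's UMIs at E16.5 were globin transcripts, against 0.256% to 0.471% at P3, and the part that this took in the results below was not tested.

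The marker genes used for the choice were seen in most of the chosen cells. Ms4a6c was found in 91.2% to 96.1% of monocytes of a library, F13a1 in 80.8% to 96.5%, Ly6c2 in 73.4% to 95.4%, Ccr2 in 76.8% to 89.5% and Csf1r, the receptor for macrophage colony-stimulating factor, in 65.9% to 79.7%. Levels are given as CPM, the UMIs of a gene scaled by the summed UMIs of all monocytes of the library. Ly6c2 measured 402, 748, 549, 712 and 358 at E16.5 and 1001, 913, 808 and 926 at P3. Ccr2 measured 350.1, 404, 289, 365 and 349 CPM at E16.5 and 237, 259, 286 and 358 CPM at P3. Ly6c2 thus varied most among the E16.5 libraries, and the stages overlapped for Ccr2. At the edge of the rule, 1036 of the monocytes held exactly 3 of the 5 markers, and 2053 barcodes that met every limit held 2. Another 838 barcodes failed only the S100 limit, 674 only the C1q limit and 404 only the H2 limit. Monocytes with exactly 3 markers held less lysozyme (Lyz2), at 513 to 1047 CPM at E16.5 and 834 to 2881 CPM at P3. Over all monocytes of a library Lyz2 measured 3873 to 6531 CPM. Fibronectin (Fn1) measured 26.1 to 184.5 CPM in those with 3 markers, against 173.2 to 462.9 CPM over all monocytes of a library. The protease gene Ctss measured 61.8 to 260.4 CPM against 175.9 to 374.9 CPM. Plac8 was not lower in those with 3 markers, at 2408 to 2813 CPM at E16.5 and 1557 to 1774 CPM at P3. Barcodes with 2 markers held much Plac8 as well, 1727 to 2456 CPM at E16.5 and 922 to 1337 CPM at P3.

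Genes that the rule did not use were compared with the label. Of 34 monocyte genes outside the rule, 29 were higher in the monocytes than in all other passing barcodes in all 9 libraries. Compared with macrophage-gated barcodes (at least 5 C1q UMIs), 16 of the 34 were higher in all 9 libraries and 5 lower, and compared with neutrophil-gated barcodes (at least 5% S100 UMIs), 25 were higher and 5 lower. Plac8 measured 1377 to 2188 CPM in monocytes and 162 to 388 CPM in macrophage-gated barcodes. The extracellular matrix gene Vcan measured 43.7 to 101.9 CPM against 2.81 to 10.1 CPM, and the cell surface gene Emb 338 to 531 CPM against 18.9 to 62.5 CPM. Cd68, a lysosomal gene of macrophages, went the other way, at 30.8 to 101.8 CPM in monocytes and 121.1 to 362 CPM in macrophage-gated barcodes. These genes set the chosen cells apart from most other barcodes, but the comparison cannot tell monocytes from their progenitors. Mpo, Elane, Prtn3, Ctsg, Ms4a3 and Cd34 were also higher than in all other passing barcodes in all 9 libraries, and Sox4 in 2. The chosen cells also included many with transcripts of primary granules, which mark immature cells of the lineage, as described next.

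The monocytes were not uniform. To compare cells at equal depth, each was thinned to 2000 UMIs at random, which left out 36 shallower cells of the 5572. After thinning, 50.3% to 57.8% of E16.5 monocytes and 69.2% to 74.0% of P3 monocytes held at least 1 UMI of Mpo, Elane, Prtn3 or Ctsg. B-gated barcodes (at least 3 UMIs of Cd79a and Cd79b) do not make these enzymes, and their share ranged from 4.66% to 21.5% before birth and from 12.3% to 21.3% after it. The median B-gated barcode had 2431 to 8220 UMIs before thinning, depending on the library. The granule share was 20.1% to 36.9% and then 28.9% to 35.1% in neutrophil-gated barcodes, and 8.12% to 22.4% and then 13.5% to 21.3% in macrophage-gated ones. This split is a range and not a type, since 49.0% of the thinned cells held 0 or 1 such UMI.

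The cells with and without a primary granule UMI differed in genes that the split did not use, and the genes given here did so in the same direction in all 9 libraries unless another count is stated. Cells with one had more Ms4a3, a gene of granulocyte and monocyte progenitors, at 280 ± 64.6 against 5.58 ± 3.92 CPM (SD, n = 9 libraries). The stem cell factor receptor Kit measured 34.6 ± 18.4 against 6.33 ± 4.65 CPM, Cd93 54.0 ± 18.3 against 11.0 ± 6.36 CPM, and the endoplasmic reticulum chaperone Calr 737 ± 125 against 301 ± 121 CPM. Cd34 and the monocyte lineage factor Irf8 were also higher in them, at 112 ± 19 against 72.6 ± 17.5 CPM and 326 ± 114 against 229 ± 100.0 CPM. Cells without a granule UMI had more of several other myeloid genes. Lysozyme (Lyz2) measured 11100 ± 4100 CPM in them and 4740 ± 1520 CPM in the others. The protease gene Ctss measured 616 ± 302 against 205 ± 98.6 CPM, fibronectin (Fn1) 738 ± 281 against 250 ± 114 CPM, and Cx3cr1 73.1 ± 11.4 against 23.2 ± 8.67 CPM. Ccr2 was higher in the same cells, at 568 ± 74.3 against 274 ± 50.7 CPM, and so were S100a4, Vcan and Nr4a1. Other monocyte genes went the opposite way: Spn was higher in cells with a granule UMI in 9 of 9 libraries (71.9 against 37.7 CPM), Ly6c2 in 8 of 9 (840.0 against 698 CPM) and Plac8 in 7 of 9 (1810 against 1400 CPM). Ccr2 and Ly6c2 are genes of the rule, so their levels also follow from the choice of the cells. The proliferation genes Top2a and Mki67 did not follow the split in that way: Top2a was higher with a granule UMI in 5 of 9 libraries and Mki67 in 1. No test was made between these sets of cells, since the classes were set from the cells themselves.

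**Figure D1:**
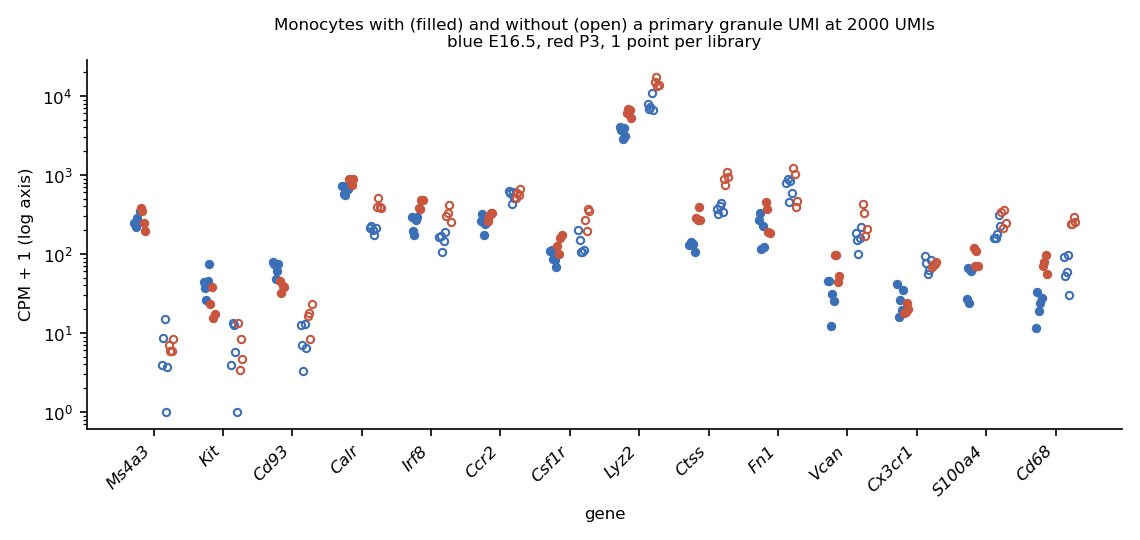
Expression of 14 genes (CPM + 1, log axis) in monocytes with (filled) and without (open) a primary granule UMI after thinning, 1 point per library, blue for E16.5 and red for P3. Ms4a3 and Kit stand higher in the filled points, and Lyz2, Ctss and Fn1 in the open points, at both stages.

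At P3 both sets also differed in cycle genes. Among P3 monocytes with a granule UMI, 82.2% to 86.5% held at least 2 UMIs of a list of 24 G2/M genes, against 59.2% to 66.2% of those without. At E16.5 the ranges overlapped, at 92.6% to 97.7% and 87.7% to 97.9%.

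Monocytes made up a larger share of the passing barcodes at P3, but this depended on which cells were counted. Their share was 2.14%, 3.55%, 1.51%, 2.33% and 1.55% in the E16.5 libraries and 5.92%, 3.85%, 4.81% and 2.87% in the P3 libraries. The stages overlapped, since library D lay below the shared library. The means were 2.21% ± 0.827 (SD, n = 5) and 4.36% ± 1.31 (SD, n = 4), a log2 ratio of 0.98 with p = 0.0317 in an exact two-sided permutation test over all arrangements of the libraries. Leaving out 1 library took this p to 0.0571 or 0.0714 in the exact test in 7 of 9 cases, namely all except the shared library and D. Per 100 neutrophil-gated barcodes, however, there were 32.5, 37.4, 22.4, 31.1 and 29.6 monocytes at E16.5 and 26.8, 21.2, 26.1 and 26.3 at P3. That log2 ratio was -0.29, with p = 0.111 in the exact permutation test. With monocytes and all barcodes both limited to those with under 5% of globin UMIs, which kept 25 to 172 monocytes of each E16.5 library and 408 to 1090 of each P3 library, the ratio was -0.99 with p = 0.0159 in the same exact test, the smallest p that this number of libraries can give. With every barcode thinned to 1000 UMIs before the rule was applied, the ratio was 1.63 with p = 0.0317 in the exact permutation test. Over macrophage-gated barcodes the libraries overlapped widely, at 48.9 to 108 monocytes per 100 at E16.5 and 34.5 to 84.6 at P3.

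**Figure D2:**
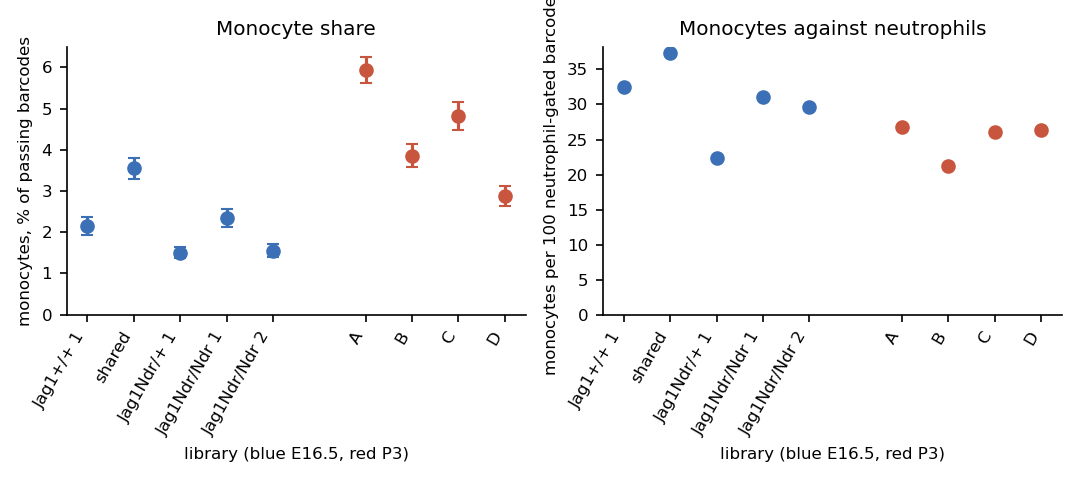
Left, monocytes as a percentage of passing barcodes by library with exact 95% binomial intervals (counting error only); right, monocytes per 100 neutrophil-gated barcodes. The P3 libraries lie between 2.87% and 5.92% on the left, and between 21.2 and 26.8 on the right, where 4 of 5 E16.5 libraries are higher.

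Within the monocytes, 5 classes set by thinned UMIs all differed between the stages, with groups of libraries that did not overlap. Each reached p = 0.0159 in an exact two-sided permutation test, which is the smallest value possible, and 0.0159 after Benjamini-Hochberg adjustment over the 5. Cells with a primary granule UMI rose from 53.7% ± 3.15 (SD, n = 5) to 71.6% ± 1.94 (SD, n = 4). Cells with a UMI of the patrolling genes Cx3cr1, Ace, Treml4 or Nr4a1 fell from 29.1% ± 2.89 to 11.0% ± 0.614. This class lies close to its limit, since 95.2% of the thinned cells held 0 or 1 such UMI, 777 of them exactly 1. In its cells the defining gene Nr4a1 measured 421 to 576 CPM and Cx3cr1 139 to 195 CPM at E16.5, against 161 to 291 CPM and 291 to 338 CPM at P3, so the genes that placed cells in the class differed between the stages. The class is a range of UMIs and not a cell type. In B-gated barcodes the patrolling share ranged over 1.24% to 2.85% before birth and 1.06% to 1.69% after it. It was 3.9% to 8.5% and then 3.4% to 4.71% in neutrophil-gated barcodes. In macrophage-gated ones it was 16.6% to 22.8% and then 30.9% to 43.7%, which at P3 lay above the monocytes.

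Cells with at least 3 UMIs of interferon-stimulated genes rose from 75.4% ± 6.37 to 94.2% ± 3.57. The share in B-gated barcodes ranged over 15.2% to 43.1% before birth and 49.6% to 62.4% after it. In neutrophil-gated barcodes it was at most 72.6% before birth and 81.0% to 91.4% after it. In macrophage-gated ones it was 33.6% to 63.5% and then 76.6% to 92.3%. The interferon share thus also rose in these gates, and at P3 both overlapped the 91.3% to 99.0% of monocytes. Cells with at least 2 G2/M UMIs fell from 94.8% ± 2.81 to 78.1% ± 2.45. At E16.5 this share was no higher than the 93.7% to 99.1% in B-gated barcodes. In macrophage-gated barcodes it ranged over 90.3% to 96.8% before birth and 33.4% to 51.1% after it. Cells with a UMI of Cd74, the chaperone of MHC class II, rose from 2.90% ± 0.754 to 8.23% ± 1.04. At P3 the range for monocytes, 7.22% to 9.4%, overlapped the 5.06% to 8.09% of neutrophil-gated barcodes, so the level is not read as expression by the monocytes. Without thinning, the differences in the granule and interferon shares were 5.5 and 0.496 percentage points, with p = 0.222 and p = 0.302 in the exact permutation test.

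**Figure D3:**
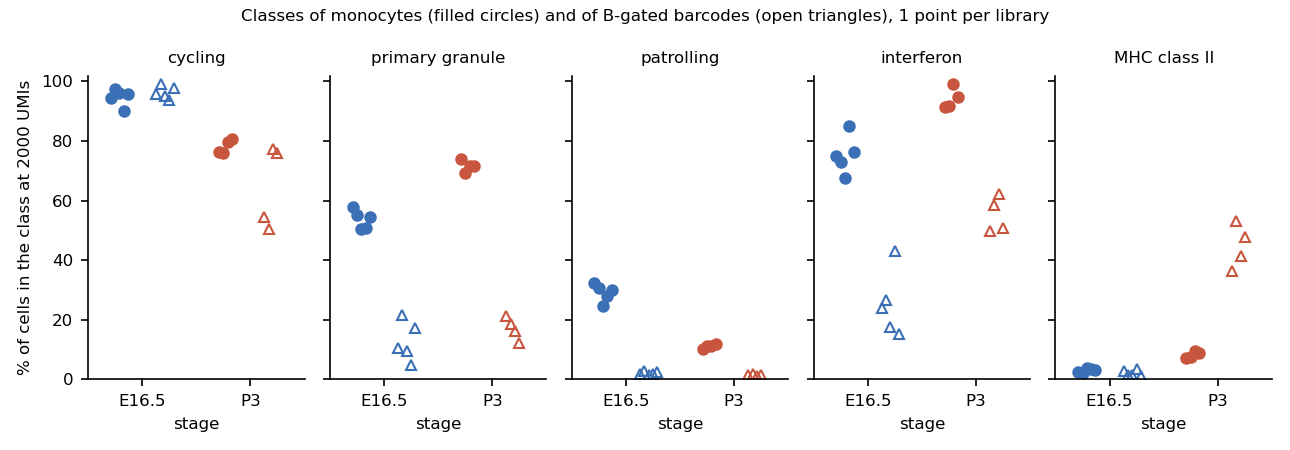
Share of monocytes (filled circles) and of B-gated barcodes (open triangles) in each of 5 classes at 2000 UMIs, 1 point per library. The panel titled cycling shows cells with at least 2 G2/M UMIs. In monocytes, the patrolling share falls from 24.7% to 32.4% at E16.5 to 10.2% to 11.7% at P3, and the granule share rises.

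Expression in the monocytes was then compared between the stages, using UMIs summed per library (5 against 4) and edgeR quasi-likelihood tests. An adjusted p is from Benjamini-Hochberg over all 10978 genes tested, and a gene is called where it is under 0.05. At P3, 2700 genes (24.6%) were called higher and 2735 (24.9%) lower, so 49.5% of all genes were called and a count for any list has to be read against that share. With library sizes alone in place of TMM factors, 3161 were higher and 2118 lower. The macrophage-gated and neutrophil-gated barcodes of the same libraries had 47.9% and 49.2% of genes called. The libraries differ in genotype within each stage, and the genotypes were pooled here.

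Many chemokine and inflammatory genes were lower in P3 monocytes. Of 24 chemokine and adhesion genes tested, 13 were lower and 2 higher, with a median log2 change of -0.67 against 0.01 over all genes. Ccl3, which draws inflammatory cells, measured 557, 358, 427, 529 and 429 CPM at E16.5 and 62.7, 37.0, 47.9 and 37.3 CPM at P3. Every P3 library lay far below every E16.5 library, with a log2 change of -3.40 (SE 0.218, adjusted p 6.44e-07 in edgeR). Ccl4, its close relative, fell from 282 ± 83.8 to 15.9 ± 6.78 CPM (log2 -4.22, SE 0.333, adjusted p 2.88e-06 in edgeR). Ccl2, the ligand of Ccr2, measured 41.6, 49.4, 46.0, 103 and 49.7 CPM at E16.5 and 3.85, 2.38, 3.28 and 3.44 CPM at P3. The stages were again apart for Ccl2, and Jag1Ndr/Ndr replicate 1 was the highest library (log2 -4.23, SE 0.325, adjusted p 2.35e-06 in edgeR). The neutrophil attractant Cxcl2 fell from 128 ± 31.7 to 8.84 ± 4.56 CPM and the retention receptor Cxcr4 from 183 ± 27.5 to 64.1 ± 32.4 CPM. The 2 members called higher were Selplg, the P-selectin ligand that lets leukocytes roll (96.0 ± 12.4 to 144 ± 24.7 CPM), and Cxcl10 (3.00 ± 1.18 to 11.7 ± 11.2 CPM). The Cxcl10 call was lost without library D, which had the highest level, and without the libraries labelled Jag1Ndr/Ndr, with an adjusted p up to 0.0782 in edgeR. Ccl5, outside that list, had 0 to 1.36 CPM at E16.5 and 22.7, 19.4, 41.0 and 6.88 CPM at P3 (log2 5.33, SE 0.6, adjusted p 3.4e-05 in edgeR). It is also made by T and NK cells, whose genes were higher in the P3 monocytes as given below.

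Of 21 inflammatory mediator genes, 11 were lower and 3 higher, with a median of -0.96. Ptgs2, the inducible cyclooxygenase, measured 37.5, 41.9, 23.9, 33.0 and 21.2 CPM at E16.5 and 1.79, 2.17, 1.14 and 0.529 CPM at P3 (log2 -4.37, SE 0.276, adjusted p 6.23e-07 in edgeR). Il6 fell from 11.7 ± 5.62 to 0.566 ± 0.584 CPM, and oncostatin M (Osm) from 56.0 ± 16.6 to 6.07 ± 2.47 CPM. Tnfaip3, a brake on NF-κB signalling, fell from 29.6 ± 6.30 to 3.39 ± 0.756 CPM. Transforming growth factor beta (Tgfb1) went the other way, from 99.2, 95.5, 80.9, 103 and 79.8 CPM to 272, 285, 320.2 and 225 CPM (log2 1.49, SE 0.123, adjusted p 3.98e-06 in edgeR). Mif also rose, from 334 ± 29.3 to 534 ± 15.4 CPM. Summed over the list, inflammatory genes measured 1438, 1325, 1394, 1559 and 1367 CPM at E16.5 and 1724, 1572, 1806 and 1473 CPM at P3, so the sum was not lower at P3.

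Immediate-early and heat shock genes, which answer to cell stress within minutes, fell together with them: 16 of 20 were lower and 1 higher, with a median of -1.32. The phosphatase gene Dusp1 measured 773, 765, 668, 732 and 611 CPM at E16.5 and 104, 81.8, 94.6 and 95.2 CPM at P3 (log2 -3.01, SE 0.126, adjusted p 2.15e-08 in edgeR). Zfp36, which destabilises cytokine transcripts, fell from 441 ± 61.6 to 38.9 ± 14.6 CPM. The exception was the constitutive chaperone Hspa8, which rose from 1560 to 3090 CPM. In macrophage-gated barcodes Dusp1 measured 350.3 ± 59.1 and 125 ± 14.6 CPM. Digestion with TrypLE at E16.5 and stage cannot be told apart here.

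Genes of the patrolling program moved in both directions. Nr4a1, on which patrolling monocytes depend, measured 142, 136, 97.2, 133 and 120.1 CPM at E16.5 and 18.5, 13.7, 12.7 and 10.6 CPM at P3. The stages were far apart (log2 -3.22, SE 0.165, adjusted p 1.52e-07 in edgeR). Nr4a1 is itself an immediate-early gene, and it fell together with that list. The chemokine receptor Cx3cr1 fell from 42.1, 38.7, 35.6, 40.6 and 53.1 CPM to 17.1, 22.2, 23.8 and 29.1 CPM (log2 -0.99, SE 0.149, adjusted p 0.000231 in edgeR), and the scavenger receptor Cd36 from 23.2 ± 5.94 to 5.54 ± 1.49 CPM. Treml4 and Pou2f2 rose, from 2.62 ± 0.830 to 6.11 ± 1.30 CPM and from 81.6 ± 9.44 to 132 ± 16.2 CPM. The Treml4 call was lost without the libraries labelled Jag1Ndr/Ndr (adjusted p 0.0542 in edgeR). In all, 6 of the 13 patrolling genes tested were lower and 2 higher, with a median of -0.57.

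Primary granule and progenitor genes rose in part. Mpo measured 2049, 1465, 1106, 1670 and 1584 CPM at E16.5 and 3532, 2170, 2839 and 2920 CPM at P3, with all P3 libraries above all E16.5 libraries (log2 0.77, SE 0.172, adjusted p 0.00293 in edgeR). Elane rose from 715 ± 96.6 to 1876 ± 554 CPM (log2 1.29, SE 0.213, adjusted p 0.000429 in edgeR), and Prtn3 from 1608 ± 251 to 3205 ± 543 CPM. For Ctsg, with 562 ± 128 and 810.1 ± 256 CPM, the difference did not pass (adjusted p 0.17 in edgeR). The granule gene Nkg7 rose from 31.1 ± 6.40 to 75.2 ± 30.2 CPM, whereas the progenitor marker Cd34 fell from 122 ± 9.54 to 89.7 ± 9.56 CPM. Nkg7 is also on the list of T and NK cell markers, and the part of those cells in its rise was not tested. Of 16 genes in the list 6 were higher and 2 lower, with a median of 0.28. Neutrophil-gated barcodes of the same libraries also held more Elane at P3, 1231 against 628 CPM.

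Transcription factors of the lineage shifted against each other. Spi1, the master factor of myeloid cells known as PU.1, measured 201, 169.6, 206, 217 and 175 CPM at E16.5 and 428, 486, 544 and 496 CPM at P3 (log2 1.22, SE 0.129, adjusted p 2.28e-05 in edgeR). Irf8 rose from 219 ± 40.7 to 409 ± 57.1 CPM and Cebpe, a factor of granule formation, from 28.2 ± 6.68 to 79.5 ± 24.8 CPM. Cebpe is also on the list of neutrophil markers, at 275 to 896 CPM in neutrophil-gated barcodes. The part of neutrophil transcripts in its rise was not tested. Cebpb, which acts in emergency myelopoiesis and patrolling monocytes, fell from 876 ± 65.0 to 218 ± 112 CPM (log2 -2.1, SE 0.291, adjusted p 0.000133 in edgeR), and Klf4 from 200.5 ± 33.5 to 129 ± 19.3 CPM. Over 22 factors tested, 3 were higher and 11 lower. Of all genes 24.6% were higher and 24.9% lower, and the counts in this paragraph have to be read against those shares. Among 17 growth factor and cytokine receptors, 3 were higher, including the interleukin-3 receptor Il3ra (21.8 ± 1.61 to 50.2 ± 10.9 CPM), and 4 were lower, including the tumour necrosis factor receptor Tnfrsf1b (46.7 ± 8.87 to 25.4 ± 4.16 CPM). With cells thinned to 2000 UMIs the Tnfrsf1b change was -0.46 against -0.99 and did not pass (adjusted p 0.0532 in edgeR). Of the 34 monocyte genes outside the rule, 11 were higher and 8 lower, such as Hp (305 ± 51.1 to 644 ± 41.4 CPM) and Cd14, the lipopolysaccharide co-receptor (119 ± 20.5 to 40.8 ± 9.76 CPM). Among 26 pattern recognition genes 5 were higher and 10 lower. Tlr2, a receptor for bacterial lipopeptides, measured 64.2, 72.4, 49.5, 65.0 and 68.3 CPM at E16.5 and 22.3, 22.7, 29.1 and 21.9 CPM at P3 (log2 -1.50, SE 0.115, adjusted p 2.32e-06 in edgeR). The inflammasome gene Nlrp3 fell from 29.1 ± 3.17 to 12.2 ± 2.57 CPM.

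Of 31 interferon-stimulated genes tested, 16 were called higher and 1 lower, and the other 14 did not pass, with a median over the list of 0.84. Ly6e measured 544, 582, 458, 633 and 447 CPM at E16.5 and 1057, 973, 1992 and 1234 CPM at P3, with library C highest (log2 1.20, SE 0.196, adjusted p 0.000398 in edgeR). The antiviral membrane gene Ifitm3 measured 717, 688, 882, 1067 and 809.5 CPM at E16.5 and 1184, 1442, 2705 and 1837 CPM at P3 (log2 0.99, SE 0.23, adjusted p 0.00383 in edgeR). Oas1a, a sensor of double-stranded RNA, measured 3.56, 2.69, 2.39, 6.20 and 5.34 CPM at E16.5 and 2.85, 26.3, 21.6 and 11.6 CPM at P3. Library A lay within the E16.5 range for Oas1a, while the other 3 P3 libraries were higher (log2 1.83, SE 0.518, adjusted p 0.0114 in edgeR). The same held for Gbp2, a guanylate-binding protein, with 1.91, 4.29, 3.44, 6.08 and 1.78 CPM and then 2.48, 13.1, 15.5 and 14.8 CPM (log2 1.54, SE 0.49, adjusted p 0.0205 in edgeR). Gbp7 rose from 22.9 ± 4.68 to 46.2 ± 7.68 CPM and Ifitm2 from 252 ± 25.9 to 553 ± 89.2 CPM. The single member called lower was the immunity-related GTPase Irgm1, with 19.7, 19.9, 17.3, 41.2 and 22.4 CPM at E16.5 and 8.70, 9.87, 14.1 and 13.2 CPM at P3 (log2 -1.21, SE 0.26, adjusted p 0.00231 in edgeR). Summed over the list, the P3 libraries measured 4184, 4695, 8149 and 5670 CPM against 2430 to 3930 CPM at E16.5. Ifi27l2a (279 to 599 CPM) lost its call in 6 of 22 alternatives.

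A sequence motif was counted in the promoters of this list. Interferon-stimulated response elements bound by STAT and IRF factors contain a repeated GAAA core, searched as GAAANNGAAA on both strands within 250 bases upstream of the start site. A match was present in 13 of the 23 listed genes with a promoter in the RefSeq table for GRCm38.p6 (56.5%), and in 936 of all 27025 genes of that table (3.46%). Of genes with a promoter there, 3.68% of those called higher at P3 and 3.37% of those called lower held it, against 3.38% of all those tested. Stretches of the members with values above are shown 5′ to 3′ on the gene's strand, with matches to the motif or its reverse complement in capitals:
Oas1a (chr5:120907526-120907560, minus strand): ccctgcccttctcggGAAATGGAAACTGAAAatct
Gbp2 (chr3:142620589-142620628, plus strand): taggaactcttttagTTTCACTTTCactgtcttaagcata
Gbp7 (chr3:142530268-142530307, plus strand): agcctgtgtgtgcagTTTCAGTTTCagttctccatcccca
Ifitm2 (chr7:140955983-140956022, minus strand): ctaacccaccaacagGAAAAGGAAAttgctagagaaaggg
Irgm1 (chr11:48871421-48871465, minus strand): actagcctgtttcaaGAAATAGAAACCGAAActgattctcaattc
Oas1a and Irgm1 each hold 2 overlapping matches, and the former rose while the latter fell. Among the 13 list members with a match, 4 were called higher and 1 lower, with a median of 0.61, and among the 10 without one 7 were higher and 0 lower, with a median of 0.84. A match is a run of letters and not a shown binding site.

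Of 16 MHC class I genes 6 were higher and 3 lower, where 24.6% and 24.9% of all genes were. The immunoproteasome subunit Psmb10 rose from 80.1 ± 11.9 to 191 ± 39.7 CPM and the peptide transporter Tap1 from 18.3 ± 3.72 to 43.8 ± 16.4 CPM, and the nonclassical H2-T23 fell from 59.0 ± 6.73 to 21.5 ± 5.26 CPM. Of 11 MHC class II genes outside the rule, 6 were higher and 3 lower. Cd74 measured 18.9, 15.2, 23.3, 18.2 and 18.9 CPM at E16.5 and 73.0, 59.5, 82.9 and 83.8 CPM at P3 (log2 1.87, SE 0.163, adjusted p 6.08e-06 in edgeR). In neutrophil-gated barcodes it reached 128 CPM at P3, and B cell genes also rose in the monocytes, and their part in this rise was not tested. The lysosomal protease gene Lgmn fell from 29.4 ± 5.84 to 12.9 ± 1.99 CPM.

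Genes of metabolism changed in both directions. Of 20 lipid and cholesterol genes 11 were lower and 3 higher. Abca1, the cholesterol exporter, measured 17.7, 34.8, 17.8, 15.6 and 25.3 CPM at E16.5 and 1.42, 1.84, 0.855 and 1.59 CPM at P3 (log2 -4.02, SE 0.279, adjusted p 1.14e-06 in edgeR). Its partner Abcg1 fell from 41.6 ± 10.5 to 10.3 ± 4.64 CPM, and lipoprotein lipase (Lpl) from 29.5 ± 9.21 to 4.41 ± 0.853 CPM. The mitochondrial fatty acid importer Cpt1a rose from 18.1 ± 3.90 to 41.1 ± 7.58 CPM. Of 18 glycolysis genes 7 were higher and 2 lower, with Pkm, the last enzyme of the pathway, at 339, 299, 288, 305 and 276 CPM and then 600.5, 614, 822 and 693 CPM (log2 1.07, SE 0.118, adjusted p 2.89e-05 in edgeR). The glucose transporter Slc2a1, abundant in erythroid cells, fell from 98.1 ± 27.2 to 14.0 ± 1.73 CPM. Of 17 iron and heme genes 11 were lower and 3 higher. Transferrin receptor (Tfrc) fell from 269 ± 82.5 to 59.6 ± 14.9 CPM. Erythroid transcripts, given below, fell as well, and their part in the values of Slc2a1 and Tfrc was not tested.

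Cell cycle lists changed little on balance, with medians of 0.05 for 24 S phase genes (8 higher, 6 lower) and -0.12 for 24 G2/M genes (2 higher, 8 lower). Cks2 fell from 458 ± 44.5 to 179 ± 13.6 CPM, and the mitotic kinase gene Plk1 rose from 65.2 ± 6.26 to 109 ± 20.6 CPM. Among 15 fetal growth genes 11 were lower and 1 higher, with a median of -2.25. Igf2bp1, a fetal RNA-binding protein, measured 18.6, 19.3, 9.27, 5.09 and 19.9 CPM at E16.5 and 0.686, 0.976, 0 and 2.65 CPM at P3 (log2 -4.11, SE 0.579, adjusted p 0.000149 in edgeR). Its paralogue Igf2bp3 rose from 82.1 ± 8.54 to 115 ± 4.84 CPM. Igf2bp1 and Igf2bp3 thus went opposite ways. Of 14 genes of Kupffer cell identity 3 were higher and 5 lower. Clec4f, a lectin of Kupffer cells, rose from 0.646 ± 0.439 to 5.67 ± 2.1 CPM (log2 3.04, adjusted p 0.000124 in edgeR), and Vsig4, their complement receptor, from 0.443 ± 0.53 to 2.85 ± 0.458 CPM (log2 2.55, adjusted p 0.00241 in edgeR). At P3 Clec4f measured 1257 ± 214 CPM in macrophage-gated and 42.9 CPM in neutrophil-gated barcodes, both above the monocytes.

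Notch pathway genes are of interest because the allele lies in a Notch ligand. Of 18 tested, 3 were higher and 9 lower at P3. Notch2, the receptor that is known to drive patrolling monocyte fate, measured 60.8, 86.1, 72.8, 63.0 and 75.3 CPM at E16.5 and 21.4, 28.9, 17.5 and 21.2 CPM at P3 (log2 -1.78, SE 0.157, adjusted p 6.53e-06 in edgeR). Notch1 measured 47.7, 49.3, 32.1, 37.5 and 47.8 CPM at E16.5 and 29.2, 30.9, 33.8 and 36.8 CPM at P3. The stages overlapped for Notch1 and were apart for Notch2, and Notch1 changed by -0.49 (SE 0.111, adjusted p 0.00302 in edgeR). With cells thinned to 2000 UMIs the Notch1 change was -0.23 and did not pass (adjusted p 0.338 in edgeR). Jag1 itself was near the floor of detection in monocytes, at 0.142 to 1.50 CPM over the 9 libraries, and was not tested.

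The 20 genes with the largest called changes, 10 in each direction, are given next. Each had at least 20 CPM in the higher group and groups of libraries that did not overlap. Genes of the rule and the listed markers of other cells such as Alb were left out. Of the 20, 15 passed neither test for a difference from the other gates described below, which does not show that they changed alike. Ccl2 and Ccl4 passed both, Timm23 the one against macrophage-gated barcodes, and Fam220a and Gm21188 the one against neutrophil-gated barcodes. Atp6v0c, a proton pump subunit, went from 2.07 ± 0.570 to 698 ± 51.3 CPM in monocytes (log2 8.29, adjusted p 3.13e-11 in edgeR). It went from 2.48 to 691 CPM in macrophage-gated and from 2.20 to 728 CPM in neutrophil-gated barcodes. The phosphatase gene Ptp4a1 went from 131 ± 13.3 to 1.63 ± 0.880 CPM in monocytes and from 116 to 1.34 CPM in neutrophil-gated barcodes. Timm23, a mitochondrial import gene, went from 2.46 ± 0.533 to 168 ± 10.3 CPM. Serpina6 had 13.6 to 85.2 CPM at E16.5 and was at 0 in all 4 P3 libraries. Mzb1, Sssca1, Brms1, Spink1 and Fam220a also fell by 4.43 to 7.26 on the log2 scale, and BC004004, Ccdc85b, Gm21188, Cyb561a3, Nanp, Iglc1 and Hgs rose by 2.86 to 8.65. Genes known from other cells, such as the immunoglobulin gene Iglc1, Mzb1 of B and plasma cells and the hepatocyte gene Serpina6, are among the 20 because they were not on those marker lists. The gene lists of the stages differed, and the part of this in such steps was not tested.

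Transcripts of other cell types also moved with stage in the chosen cells. Erythroid genes, 11 of 13 called lower, summed to 97900 to 168000 CPM at E16.5 and 21400 to 42900 CPM at P3. Hepatocyte genes, 12 of 12 lower, summed to 2400 to 6230 and 181 to 625 CPM. T and NK cell genes, 6 of 8 higher, summed to 39.5 to 93.7 and 101.8 to 269 CPM, and B cell genes, 5 of 10 higher and 2 lower, to 182 to 358 and 411 to 716 CPM. Neutrophil genes outside the rule, 7 of 15 higher and 1 lower, summed to 789 to 1060 and 843 to 1510 CPM. S100a8, limited by the rule, measured 3243 to 5195 and 4542 to 6987 CPM. Basophil and mast cell genes, 5 of 7 lower, summed to 93.9 to 193 and 20.6 to 133.9 CPM. Macrophage genes outside the rule, 3 of 9 higher and 3 lower, summed to 57.8 to 106 and 61.5 to 75.6 CPM. The C1q genes of the rule each measured between 2.16 and 7.08 CPM at E16.5 and between 8.20 and 24.2 CPM at P3. Their part in the differences above was not tested.

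To ask which changes were larger or smaller in monocytes than in neighbouring myeloid cells, the stage change was tested for an interaction with the gate, with the library as a block. Against macrophage-gated barcodes, 1980 of 12123 genes (16.3%) were called, 667 with a more positive change in monocytes (5.5%) and 1313 with a more negative one (10.8%). Against neutrophil-gated barcodes, 1471 of 11942 (12.3%) were called, 441 (3.69%) and 1030 (8.63%). The counts were 1260 and 874 without library A and 1108 and 766 without library B, and 824 against macrophage-gated barcodes with monocytes under 20% globin. The split of directions moved with the scaling: with library sizes alone it was 347 and 1548, and 258 and 1035, and in DESeq2 771 and 924, and 607 and 582. It moved with the cells and libraries as well: with at least 4 of 5 markers it was 1188 and 1291 against macrophage-gated barcodes, and without E16.5 Jag1Ndr/+ replicate 1 it turned to 729 and 434 against neutrophil-gated ones. Of the genes called for stage in monocytes, 251 differed in the same direction from both other gates, 42 of them higher and 209 lower.

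Rgs1, a brake on chemokine receptor signalling, set monocytes apart most clearly. In monocytes it measured 51.0, 43.6, 63.5, 59.9 and 59.1 CPM at E16.5 and 6.33, 7.91, 4.27 and 7.41 CPM at P3. In macrophage-gated barcodes it stayed at 223 ± 29.2 and 230.2 ± 79.1 CPM, and in neutrophil-gated barcodes at 7.38 and 7.38 CPM. The change differed by -3.03 from macrophage-gated (adjusted p 2.58e-06) and by -3.14 from neutrophil-gated barcodes (adjusted p 1.17e-05) in edgeR. Abca1 differed likewise, by -2.80 and -2.72 (adjusted p 5.16e-05 and 0.000237 in edgeR), with 255 ± 85.5 and 133 ± 50.9 CPM in macrophage-gated barcodes. Thbs1, thrombospondin, measured 501, 427, 337, 178 and 440.4 CPM and then 38.4, 18.9, 45.9 and 37.5 CPM in monocytes. Its change differed from that in macrophage-gated barcodes (-2.84, adjusted p 0.00434 in edgeR), and against neutrophil-gated barcodes the difference of -0.86 did not pass (adjusted p 0.21 in edgeR).

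Ccl2 and Cxcl2 fell further in monocytes than in either gate. The difference was -2.06 and -3.18 for Ccl2 (adjusted p 0.000542 and 0.00163 in edgeR) and -1.91 and -2.26 for Cxcl2 (adjusted p 0.00434 and 0.00639 in edgeR). Of 26 chemokine and adhesion genes tested against macrophage-gated barcodes, 16 had the more negative change and 1 the more positive, and of 25 against neutrophil-gated barcodes 10 and 0. Nr4a1 also fell further, by -1.40 and -1.52 (adjusted p 0.00036 and 0.000216 in edgeR), as did Lpl, by -1.92 and -2.53 (adjusted p 0.00971 and 0.000624 in edgeR). Cx3cr1 and Tlr2 fell in monocytes while they went from 119 ± 17.3 to 185 ± 53.5 CPM and from 30.7 ± 8.33 to 47.3 ± 16.8 CPM in macrophage-gated barcodes. For Tlr2 the difference was -1.89 (adjusted p 0.000239 in edgeR), and for Cx3cr1 -1.47 (adjusted p 0.00382 in edgeR). Notch2 fell further than in macrophage-gated barcodes (-0.73, adjusted p 0.00256 in edgeR), but its difference from neutrophil-gated ones was -0.26 (adjusted p 0.208 in edgeR).

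Some genes had a more positive change in monocytes. Ass1, which makes argininosuccinate in arginine synthesis, measured 34.7, 36.4, 34.7, 33.1 and 26.4 CPM at E16.5 and 61.5, 73.3, 85.0 and 68.2 CPM at P3. Its change exceeded that in the macrophage-gated and neutrophil-gated barcodes by 1.54 and 1.15 (adjusted p 0.0202 and 0.0273 in edgeR). The call against neutrophil-gated barcodes was lost without E16.5 Jag1+/+ replicate 1, without E16.5 Jag1Ndr/Ndr replicate 2 or without library C, with an adjusted p up to 0.0649 in edgeR. Igfbp4, a binding protein of insulin-like growth factors, rose from 90.6 ± 10.8 to 145 ± 26.1 CPM and went from 184 ± 36.6 to 91.6 ± 20.6 CPM in macrophage-gated barcodes, a difference of 1.75 (adjusted p 3.16e-05 in edgeR). Olfm1 rose from 19.3 ± 2.71 to 43.0 ± 8.66 CPM with a difference of 1.77 from macrophage-gated barcodes (adjusted p 0.0002 in edgeR). The glycolysis enzyme Pgam1, with 418 ± 39.1 and 540.3 ± 85.7 CPM, did not pass for stage alone (adjusted p 0.131 in edgeR), but its change lay 1.07 above that in macrophage-gated barcodes (adjusted p 0.000339 in edgeR). Of 18 glycolysis genes 10 had the more positive change against macrophage-gated barcodes and 1 the more negative. The interferon genes went the other way: 0 of 31 had a more positive change in monocytes, and 11 and 20 had a more negative one against macrophage-gated and neutrophil-gated barcodes. For Ifitm3 the values were -0.56 and -1.27 (adjusted p 0.0188 and 0.000281 in edgeR). The stage change of those members was thus more negative in monocytes than in that gate.

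**Figure D4:**
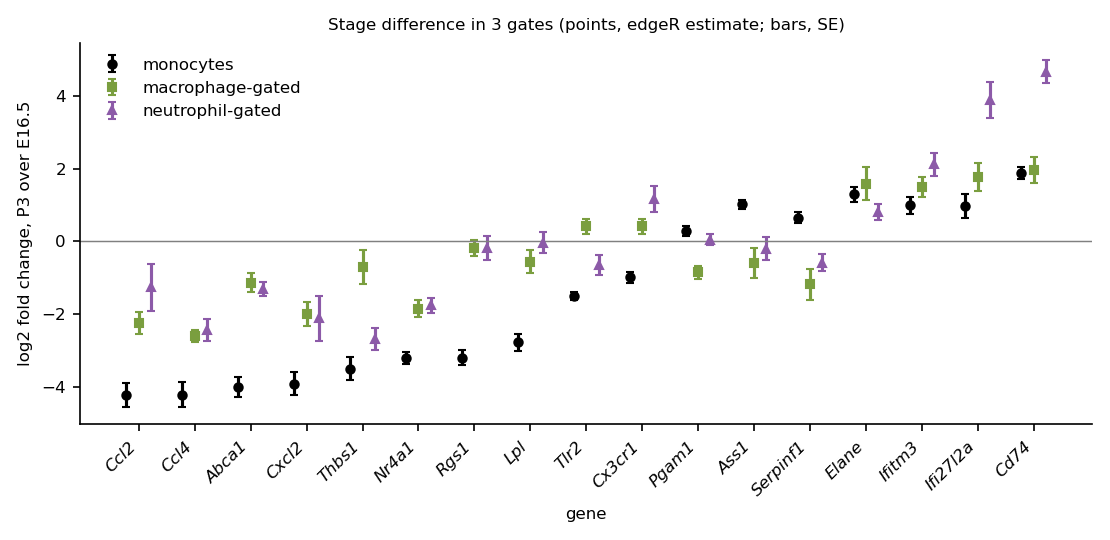
Log2 fold change from E16.5 to P3 (edgeR estimate, bars are standard errors) for 17 genes in monocytes, macrophage-gated and neutrophil-gated barcodes. Rgs1, Abca1 and Ccl2 fall further in monocytes than in both gates, Ass1 rises in monocytes alone among the 3 gates, and Ifitm3 and Ifi27l2a rise less in monocytes.

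Genotype was compared at E16.5, with both Jag1Ndr/Ndr libraries against the 3 without a homozygous label. The monocyte share was 1.94% ± 0.555 (SD, n = 2) and 2.40% ± 1.04 (SD, n = 3), with p = 1.0 in an exact two-sided permutation test, where 10 arrangements allow no p under 0.2. None of the 5 classes could pass either. Interferon was the only one of them with groups apart, at 80.7% ± 6.20 in Jag1Ndr/Ndr and 71.8% ± 3.89 in the others, and p = 0.2 in the exact permutation test. Over the other classes the differences ran from -3.06 to 0.344 percentage points. Without single libraries the interferon difference ran from 4.45 to 13.2 points, and that for cells with at least 2 G2/M UMIs from -5.88 to -0.233 points.

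In the monocytes, 1 of 11479 genes (0.00871%) was called in edgeR. DESeq2 gave 11 calls, and the unadjusted edgeR p was under 0.05 for 347 genes (3.02%). The called gene was Adgrg5 (chromosome 8, 94923694 to 94943280, plus strand), an adhesion G protein-coupled receptor. It measured 10.1, 11.4 and 12.6 CPM in the libraries without the homozygous label, from 80, 116 and 85 UMIs, and 0.368 and 0.947 CPM in the homozygous replicates, from 3 and 7 UMIs. The groups were far apart (log2 -4.10, SE 0.399, adjusted p 0.0127 in edgeR). The call was lost without Jag1Ndr/+ replicate 1 or without Jag1Ndr/Ndr replicate 1, with an adjusted p up to 0.181 in edgeR. At P3, Adgrg5 measured 11.2, 9.97, 20.5 and 36.0 CPM, and library C, which has only the homozygous label, lay between B and D. The low level in the homozygous E16.5 libraries was thus not seen in library C. In macrophage-gated barcodes at E16.5, Adgrg5 was near the floor, at 1.27, 0.646 and 0.471 CPM against 0.283 and 0.114 CPM. Over all passing barcodes it measured 0.756, 1.3 and 0.498 CPM against 0.0943 and 0.0905 CPM. The homozygous libraries were the lower ones in both, but all passing barcodes include the monocytes, so that value is not separate from theirs. In neutrophil-gated barcodes the groups overlapped.

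The next lowest p values belonged to the hepatocyte genes Serpina1c, Apoa1 and Serpina1a, on chromosomes 12, 9 and 12. Several other genes with a low p lie on chromosome 8, as Adgrg5 does. Those given here were picked after their values were seen, except Hpgd. Like Adgrg5, Hpgd was set to be named in any case, but with earlier results of these data known. Hpgd, which degrades prostaglandins (chromosome 8, 56294585 to 56321043), measured 26.9, 31.7 and 37.9 CPM against 66.1 and 72.6 CPM (log2 1.11, SE 0.203, unadjusted p 0.00026, adjusted p 0.597 in edgeR). Il15 (chromosome 8, 82331632 to 82403222), a cytokine that sustains NK cells, measured 10.3, 9.16 and 9.32 CPM against 20.1 and 16.8 CPM (log2 0.96, adjusted p 0.739 in edgeR). Ocel1 (chromosome 8, 71371298 to 71379361) measured 28.0, 24.8 and 30.8 CPM against 15 and 9.87 CPM in monocytes, and 19.7, 19.2 and 17.2 against 9.72 and 7.95 CPM in macrophage-gated barcodes. Gadd45gip1 (chromosome 8, 84831522 to 84835482) measured 64.6, 55.9 and 43.1 CPM against 86.4 and 90.5 CPM. In all 4 of these chromosome 8 genes the homozygous libraries lay beyond the other 3 and the adjusted edgeR test did not pass. Hpgd passed in 2 of the 17 other settings, namely DESeq2 (adjusted p 0.00266) and edgeR with no filter on low counts (adjusted p 3.25e-07). Of the 13 genes with an unadjusted p under 0.001, 5 lie on chromosome 8. The hepatocyte genes Serpina1c, Apoa1, Serpina1a, Ttr, Ahsg and Serpina1b are also among the 13. Over all genes, 13 of 618 on that chromosome (2.1%) had a p under 0.01, against 83 of 11476 (0.723%) in the whole genome.

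**Figure D5:**
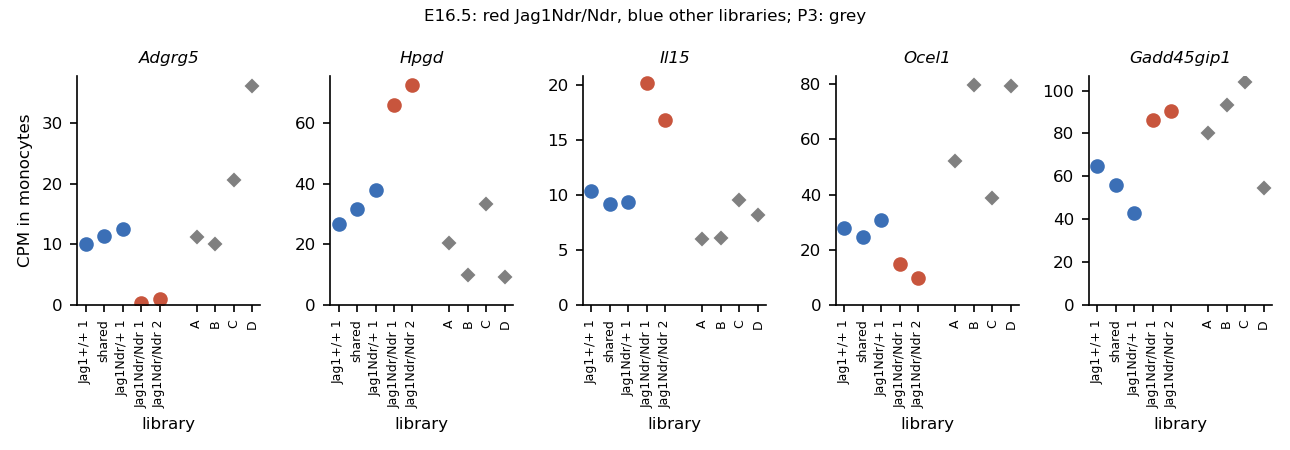
CPM in monocytes for 5 chromosome 8 genes by library; at E16.5 Jag1Ndr/Ndr is red and the other libraries are blue, and P3 libraries are grey. Adgrg5 stands at 0.368 and 0.947 in the homozygous E16.5 libraries and at 9.97 to 36.0 at P3.

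Interferon-stimulated genes had low unadjusted p values more often than most lists, but 1 library was the highest in nearly all of them. None of 31 was called, and 12 had an unadjusted p under 0.05 in edgeR, against 3.02% of all genes. The median log2 difference was 0.69, and in 11 both homozygous libraries lay above the other 3. Jag1Ndr/Ndr replicate 1 was the highest of the 5 libraries in 30 of the 31 genes. Replicate 2 lay within the range of the libraries without the homozygous label in 12 genes and below it in 7. Isg15, a ubiquitin-like antiviral protein, measured 12.3, 7.59 and 24.6 CPM against 47.6 and 11.1 CPM. Rsad2, the antiviral enzyme viperin, measured 95.8, 74.1 and 22.5 CPM against 188.7 and 11.2 CPM. For Rsad2 the homozygous libraries lay on opposite sides of the others, and for Isg15 replicate 2 lay within their range. Usp18, which dampens interferon signalling, measured 3.65, 3.25 and 4.59 CPM against 18 and 5.28 CPM.

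Both Notch receptor genes overlapped between the genotypes in monocytes. Notch1 measured 47.1, 48.8 and 31.8 CPM against 37.1 and 47.2 CPM, and Notch2 60.1, 85.1 and 72.1 CPM against 62.3 and 74.4 CPM. Their log2 differences were 0.01 (SE 0.173) and -0.07 (SE 0.178), both with an adjusted p of 1.0 in edgeR, and the groups overlapped. Both signs turned under some alternatives. Nr4a1 differed by 0.04 (SE 0.156, adjusted p 1.0 in edgeR), and its sign turned as well. The Notch target Hes1 was low, at 3.52, 4.83 and 2.66 CPM against 0.982 and 2.44 CPM (log2 -1.10, unadjusted p 0.0319, adjusted p 1.0 in edgeR). For Hes1 both homozygous libraries lay below the other 3, and the adjusted test did not pass. Jag1 measured 0.251, 0.985 and 1.48 CPM against 0.491 and 0.812 CPM and was not tested. Hepatocyte transcripts in the monocytes were lower in the homozygous libraries, 12 of 12 with an unadjusted p under 0.05, at a sum of 2396 and 2589 CPM against 3445 to 6230 CPM. Their part in the genotype values was not tested.

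At P3, library C (label Jag1Ndr/Ndr) was set beside library D (label Jag1Ndr/+) without a test, since each is 1 library. Of 5947 genes with at least 20 CPM in either, 72 (1.21%) were at least 2-fold higher in C and 41 (0.689%) at least 2-fold lower, with exact Poisson intervals apart that cover counting error only. Myl9, a myosin light chain, measured 134 CPM (95% interval 125.6 to 142.8) in C and 0.529 CPM (0.064 to 1.91) in D, against 9.02 and 2.38 CPM in A and B. Alox12, the platelet lipoxygenase, measured 49.3 against 0.529 CPM. All 6 megakaryocyte genes with at least 20 CPM were higher in C, with platelet factor 4 (Pf4) at 699 against 18.5 CPM and at 797 and 17.7 CPM in A and B. The list summed to 1004, 26.3, 1145 and 26.7 CPM in libraries A to D. Library A, with a platelet sum near that of C, measured 9.02 CPM of Myl9 and 10.1 CPM of Alox12. The platelet gene Ppbp measured 100 CPM in A and 234 CPM in C. The part of platelet transcripts in the Myl9 and Alox12 values was not tested. Of 25 interferon genes 1 was higher in C, with a median log2 ratio of 0.45 against -0.02 over all genes. Lower in C were the tRNA-modifying enzyme gene Thg1l (2.99 against 23.5 CPM), Ly6d (5.84 against 31.2 CPM) and the histone gene Hist1h4d (42.0 against 159.9 CPM). For Thg1l and Hist1h4d, libraries A and B spanned 5.96 to 14.7 CPM and 34.2 to 106.9 CPM, so that C lay next to A.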

How the data were processed

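Whole-liver droplet libraries were analysed from the deposited matrices, whose values are raw UMI counts per gene and cell, per the file headers made with 10x software 3.0.2 at P3 and 3.1.0 at E16.5. The submitters' processing notes name Cell Ranger 2.1.1 and mm10. Monocyte counts were summed per library and tested with edgeR 4.0.16 (TMM, quasi-likelihood, R 4.3.3), with Benjamini-Hochberg adjustment over all genes tested. DESeq2 1.42.0 was an alternative. Shares used exact two-sided permutation tests (scipy 1.17.1). Scripts were tested on simulated data. Scrublet scores ranked possible doublets, which were kept except in an alternative. CPM at E16.5 differ slightly between the genotype and stage fits, because the former used the full gene list. The design text gives 2 individuals for each genotype and stage, but overlapping matrices do not show which animal a library is, so p-values measure only the spread between these libraries. Monocytes and gene lists were chosen with earlier results of these data known. Named genes were, for each comparison, the 10 largest called changes in each direction with at least 20 CPM in the higher group and groups that did not overlap (leaving out genes of the rule, genes on the lists of other cells' markers, mitochondrial genes, Xist and Y-linked genes), up to 2 called members of each list in each direction, the genes of the rule, Jag1, Notch1, Notch2, Nr4a1, Hpgd and Adgrg5. Other list members and genes with per-library values were added after their values were seen. P3 matrices with overlapping barcodes were used once. Replicate numbers are only shared between groups and do not pair the libraries.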

Additional observations from a re-analysis of the deposited data

Results flagged for a closer look

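In all, 40 groups of libraries were examined for a library far from the others, and chance alone gives about 1 in 20 such groups. Library B had the fewest monocytes per 100 neutrophil-gated barcodes at P3, 21.2, with the next library at 26.1. At E16.5, Jag1Ndr/+ replicate 1 had the highest median globin share per monocyte, 14.5%, with the next library at 7.92%. The stage change differed between monocytes and macrophage-gated barcodes for 1980 genes and between monocytes and neutrophil-gated barcodes for 1471 genes, by the interaction test.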

How the results depend on the processing

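The stage difference in monocyte share turned from a log2 ratio of 0.98 to -0.99 with monocytes and all barcodes limited to under 5% globin and to -0.29 per 100 neutrophil-gated barcodes, and ran from 0.8 to 1.21 without single libraries, with p of 0.0571 or 0.0714 in the exact permutation test in 7 of 9 cases. The genotype difference in share was 0.17 under 5% globin and -0.63 to 0.09 without single libraries. Without thinning, the stage differences in granule and interferon shares were 5.5 and 0.496 points. Genotype differences changed sign for the granule share (1.5 at 1000 UMIs, 1.75 unthinned, -3.84 to 0.103 without single libraries), the patrolling share (1.87, 2.61, 0.0483 under 20% globin, -2.5 to 1.32) and the MHC class II share (-0.904 unthinned, -0.0167 with 4 of 5 markers, -0.077 to 0.91). Stage calls numbered 3045 after thinning, 3849 without libraries labelled Jag1Ndr/Ndr and 4887 to 5273 without single libraries. With the replicate block there were 5269 stage calls and 1 genotype call. Genotype calls numbered 11 in DESeq2, 154 with no filter, 0 after thinning and 0 to 4 without single libraries. Interaction calls against macrophage-gated barcodes were 824 under 20% globin and 1108 to 2284 without single libraries (1260 without A, 1108 without B). Against neutrophil-gated barcodes they were 2443 with doublets removed and 766 to 1767 without single libraries (874 without A, 766 without B). Among named genes, Car1 turned from 0.73 to -1.03 (doublets removed) and -0.47 (thinned), and Gp9 from 2.67 to -0.27 (4 of 5 markers). For genotype, Notch1 ran from -0.15 to 0.16 (-0.09 in another case) without single libraries, -0.02 with library sizes, -0.03 with the replicate block and -0.01 with doublets removed, Notch2 from -0.2 to 0.04 (0.01) and Nr4a1 from -0.05 to 0.14 (-0.04) without single libraries. The Notch1 interactions reached -0.01 against macrophage-gated barcodes (library sizes) and ran from -0.0 to 0.25 against neutrophil-gated ones without single libraries. The cause of these changes was not tested. Depth limits Jag1 and other genes near 1 CPM.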

Other observations

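Some genes split the P3 libraries rather than the stages in monocytes, and were chosen after their values were seen. Rpl10, a ribosomal protein gene with near-identical copies, so that its counts are uncertain, measured 761, 2610, 10.8 and 8.2 CPM in libraries A to D and 1730 to 2330 CPM at E16.5. In macrophage-gated barcodes it measured 540, 1910, 10.4 and 9.72 CPM in the same order. Rps27 measured 1300, 1880, 13.2 and 25.1 CPM in monocytes of A to D. The platelet gene Ppbp measured 100, 0.976, 234 and 0.529 CPM there, and 82.8 CPM in the shared library against 1.65 to 3.97 CPM in the other E16.5 libraries.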
